A study of Mus musculus with 6 samples.

Results

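The genes described are 10 peptide hormone genes of the pylorus and duodenum, taken by symbol from the 39179 genes of the deposited table. Gast, Sst and Ghrl stand for hormones made in the stomach. Cck, Gip, Sct, Nts, Pyy and Gcg stand for hormones typical of the intestine, and Iapp encodes islet amyloid polypeptide, a hormone of pancreatic beta cells that endocrine cells of the stomach also make. They were measured by RNA sequencing of mouse pylorus in 3 Sox2 KO and 3 Sox2 WT libraries. Sox2 KO mice carried a tamoxifen-activated Cre recombinase at Rosa26 (Rosa26CreER) together with floxed Sox2 alleles (Sox2 fl/fl). Sox2 WT mice had the same floxed alleles with an unmodified Rosa26. All mice, of mixed C57BL/6 x 129 background, were given tamoxifen at 8 weeks of age, and stomachs were taken 2 weeks later. Rosa26 is active in most cell types, so the deletion was not designed to be limited to the epithelium. The muscle was peeled away, and RNA came from epithelium and mesenchyme together. Whether every library came from its own animal is not in the labels, so a p-value here covers library-to-library spread, which may be technical. Values of the 3 libraries of a group are given in the order of replicates 1, 2 and 3.

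Endocrine cells are scattered singly through the gut lining and are named for the peptide they store. In the pylorus, G cells release gastrin, which drives acid secretion, and D cells release somatostatin, which restrains both gastrin and acid. X/A-like cells, commoner in the acid-secreting corpus, release ghrelin, a hormone of hunger. In the duodenum, I cells make cholecystokinin, K cells make glucose-dependent insulinotropic polypeptide and S cells make secretin. L cells and N cells, which lie further along the intestine, make proglucagon peptides with peptide YY, and neurotensin.

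Of the 10 genes, 9 had reads and 8 had a mean of at least 0.5 RPKM, the limit for testing. RPKM scales reads by gene length and by a denominator for each library. None of the 8 passed the test between Sox2 KO and Sox2 WT, which was limma over 14045 genes at an adjusted p under 0.05, and which called 4 genes, or 0.0285% of those tested, 2 of them higher in Sox2 KO (0.0142%) and 2 lower (0.0142%). voom on the recovered reads, another test, also called 0 of the 8 hormone genes. Cck, Gip, Pyy and Iapp were nonetheless higher in each Sox2 KO library than in any Sox2 WT library. This held for 4 of the 8 tested hormone genes, against 4.09% of all tested genes. Gast, Sst, Ghrl and Gcg overlapped between the groups. An unadjusted p under 0.05 was reached by the same 4 hormone genes, all higher in Sox2 KO, and by 3.15% of all tested genes, 2.11% being higher. Their log2 fold changes were all at least 0.5, as were those of 2.24% of tested genes.

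**Figure D1:**
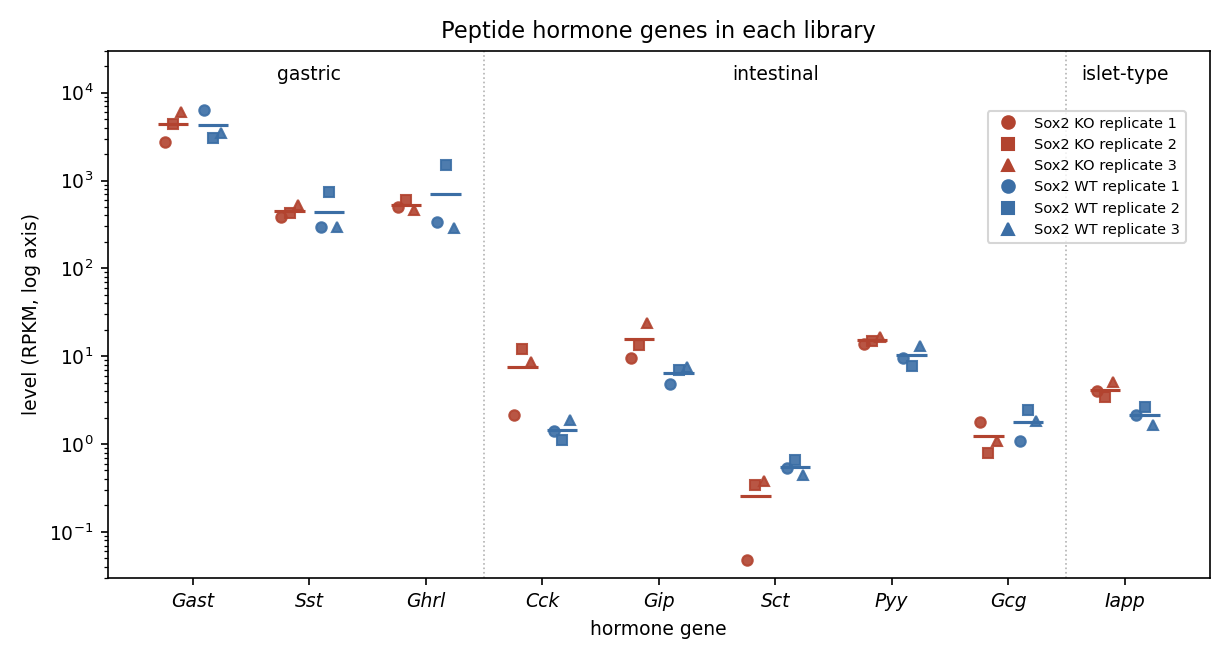
Level of the 9 hormone genes with reads, in RPKM on a log axis, in each Sox2 KO library (red) and Sox2 WT library (blue), with symbols for the replicate numbers and a bar at each group's mean. Gast, Sst and Ghrl lie well above the rest, with overlapping groups, while the Sox2 KO points of Cck, Gip, Pyy and Iapp all lie above the Sox2 WT points.

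The deleted gene was checked first. Sox2 was at 0.342, 0.210 and 0.420 RPKM in the 3 Sox2 KO libraries, against 11.1, 9.03 and 10.9 RPKM in the 3 Sox2 WT libraries. Its log2 fold change was -3.72 (limma adjusted p = 0.000293). Reads in genes numbered 29776868 to 32581894 in Sox2 KO and 22015472 to 27535693 in Sox2 WT libraries, so each Sox2 KO library was deeper. The denominators behind the RPKM were not these totals but 29068051 to 33919303 in Sox2 KO and 24141183 to 28032645 in Sox2 WT libraries, and how the authors set them is not known here. From Xist and Ddx3y the 3 Sox2 KO libraries were male, as was Sox2 WT replicate 1, while Sox2 WT replicates 2 and 3 were female. Sex and genotype were therefore confounded apart from Sox2 WT replicate 1, and values with sex as a covariate set the Sox2 KO libraries against that library alone. The number of genes called over the table was 8 without Sox2 KO replicate 1, 7 without Sox2 WT replicate 1, 1 without Sox2 KO replicate 2 or Sox2 WT replicate 3, and 3 without either of the other two.

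The order of the levels split the hormone genes into 2 tiers. Averaged over the 6 libraries, Gast was at 4372 RPKM, Ghrl at 615 RPKM and Sst at 445 RPKM. Far beneath them came Pyy at 12.7 RPKM, Gip at 11.0 RPKM, Cck at 4.51 RPKM, Iapp at 3.16 RPKM, Gcg at 1.51 RPKM and Sct at 0.404 RPKM. The lowest value of a gastric hormone gene in any library, 290 RPKM for Ghrl in Sox2 WT replicate 3, was over the highest of an intestinal one, 23.6 RPKM for Gip in Sox2 KO replicate 3. Neighbours within a tier did not keep their order: Sst was above Ghrl in Sox2 KO replicate 3 and Sox2 WT replicate 3 and below it elsewhere, and Gip was above Pyy in Sox2 KO replicate 3 and below it elsewhere. RPKM divides by the gene length that the authors used, so comparisons between genes rest on those lengths. The shortest length that gave whole reads was 340 bases for Gip, 457 for Gast and 1487 for Gcg. A multiple of such a length, with the reads multiplied alike, would fit as well. Nts (chromosome 10, 102481756 to 102490486, minus strand) had 0 reads in all 6 libraries. At an upper 95% limit with no lower side, a count of 0 allows up to about 3 reads in each, for counting error only.

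Promoter sequences are shown for the 4 hormone genes that were higher in each Sox2 KO library, with Gast, the most abundant member, for contrast. Each is the 250 bases before the transcription start (RefSeq, build GRCm38.p6, 5′ to 3′ along the gene), and all 10 genes matched an entry. Pyy had 2 listed starts and Ghrl, not shown, had 4. For these the window before the most upstream start was taken, and their other windows were not read. Capitals mark, on either strand, the SOX core letters ACAAAG or ACAATG, the GATA core AGATAA and the TATA box letters TATAAA.
Cck, chr9:121495695-121495944, minus strand: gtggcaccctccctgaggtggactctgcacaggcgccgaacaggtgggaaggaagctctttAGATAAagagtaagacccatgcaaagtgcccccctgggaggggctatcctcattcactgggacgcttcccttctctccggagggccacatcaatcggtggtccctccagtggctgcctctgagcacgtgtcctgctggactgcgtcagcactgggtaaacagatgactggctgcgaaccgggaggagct
Gip, chr11:96024295-96024544, plus strand: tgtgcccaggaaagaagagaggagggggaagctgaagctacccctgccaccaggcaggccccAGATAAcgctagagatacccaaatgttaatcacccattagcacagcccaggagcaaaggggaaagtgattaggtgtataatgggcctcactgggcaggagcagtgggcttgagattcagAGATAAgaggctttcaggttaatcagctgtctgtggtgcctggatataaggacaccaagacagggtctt
Pyy, chr11:102107833-102108082, minus strand: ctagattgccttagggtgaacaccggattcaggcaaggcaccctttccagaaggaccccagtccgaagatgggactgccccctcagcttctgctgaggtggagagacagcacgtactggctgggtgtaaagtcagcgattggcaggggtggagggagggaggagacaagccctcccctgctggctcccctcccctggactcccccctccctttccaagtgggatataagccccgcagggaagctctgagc
Iapp, chr6:142298175-142298424, plus strand: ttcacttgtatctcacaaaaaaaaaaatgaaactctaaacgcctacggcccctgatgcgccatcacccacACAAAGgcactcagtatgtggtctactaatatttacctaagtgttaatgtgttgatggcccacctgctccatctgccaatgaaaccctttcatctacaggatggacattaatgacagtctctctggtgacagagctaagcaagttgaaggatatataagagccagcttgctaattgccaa
Gast, chr11:100334157-100334406, plus strand: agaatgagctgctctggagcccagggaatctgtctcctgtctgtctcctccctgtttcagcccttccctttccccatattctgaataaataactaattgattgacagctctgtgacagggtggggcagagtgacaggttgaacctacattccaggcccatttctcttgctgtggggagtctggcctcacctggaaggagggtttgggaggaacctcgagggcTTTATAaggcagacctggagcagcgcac
AGATAA stood once before Cck and at 2 places before Gip, and 9.99% of 32851 such windows in the mouse annotation held it. Iapp held ACAAAG once, and 25.2% of windows held one of the SOX core sequences. Nts, not shown and with 0 reads in all libraries, also held AGATAA and ACAAAG. Over all 10 genes, AGATAA was found before 3 and ACAAAG before 2. Cck, Gip, Pyy and Gast held neither SOX core sequence within these windows. Gast held TATAAA on the minus strand 28 to 23 bases before its start, and 12.4% of windows held those letters. These are letter matches and say nothing of binding.

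Cck (GRCm38, chromosome 9, 121489824 to 121495694, minus strand) encodes cholecystokinin, the duodenal signal for gallbladder contraction, pancreatic enzyme release and satiety. It had the highest ratio of group means, and was at 2.17, 12.0 and 8.52 RPKM in the 3 Sox2 KO libraries, from 44, 238 and 197 reads. In the 3 Sox2 WT libraries it was at 1.40, 1.098 and 1.90 RPKM, from 23, 21 and 33 reads. Sox2 KO replicates 2 and 3 stood well apart from the Sox2 WT libraries, whereas Sox2 KO replicate 1 was close to them: its exact 95% Poisson interval of 1.57 to 2.91 RPKM overlapped that of Sox2 WT replicate 3, 1.31 to 2.66 RPKM. The mean was 7.56 ± 4.99 RPKM in Sox2 KO and 1.46 ± 0.403 RPKM in Sox2 WT (SD, n = 3 each), a ratio of 5.17. The log2 fold change, on the log2(RPKM + 0.5) scale that understates changes of low genes, was 1.79 (SE 0.526, 95% interval 0.56 to 3.02, limma unadjusted p = 0.0107, adjusted p = 0.9995). Without Sox2 KO replicate 1 it was 2.45 and passed (limma adjusted p = 0.0448).

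Gip (chromosome 11, 96024545 to 96030831, plus strand) encodes glucose-dependent insulinotropic polypeptide, the incretin of K cells. Its level was 9.58, 13.4 and 23.6 RPKM in the 3 Sox2 KO libraries, from an estimated 97, 132 and 272 reads. In the 3 Sox2 WT libraries it was 4.87, 7.03 and 7.61 RPKM, from an estimated 40, 67 and 66 reads. The groups did not overlap, and Sox2 KO replicate 3, not replicate 2 as for Cck, was the highest. The mean was 15.5 ± 7.25 RPKM in Sox2 KO and 6.50 ± 1.44 RPKM in Sox2 WT (SD, n = 3 each). The log2 fold change of 1.12 (SE 0.316, 95% interval 0.38 to 1.86) had a limma unadjusted p of 0.00875 and an adjusted p of 0.938.

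Pyy (chromosome 11, 102106676 to 102107832, minus strand) encodes peptide YY, which slows gut transit and curbs appetite, and was at 13.7, 15.0 and 16.7 RPKM in the 3 Sox2 KO libraries. It was at 9.63, 7.81 and 13.2 RPKM in the 3 Sox2 WT libraries. The Sox2 KO libraries were close together, and Sox2 WT replicate 3 lay just under the lowest of them. The log2 fold change was 0.57 (SE 0.187, 95% interval 0.13 to 1.01, limma adjusted p = 0.9995), from a mean of 15.1 ± 1.53 RPKM in Sox2 KO and 10.2 ± 2.72 RPKM in Sox2 WT (SD, n = 3 each).

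Iapp (chromosome 6, 142298423 to 142303961, plus strand) was at 4.06, 3.39 and 5.08 RPKM in the 3 Sox2 KO libraries, against 2.12, 2.66 and 1.63 RPKM in the 3 Sox2 WT libraries. It had the smallest unadjusted p of the 10 genes, ranking at 72 among the 14045 tested. The log2 fold change was 0.83 (SE 0.192, 95% interval 0.38 to 1.28, limma unadjusted p = 0.00315, adjusted p = 0.611), and group means of 4.18 ± 0.847 RPKM in Sox2 KO and 2.14 ± 0.513 RPKM in Sox2 WT (SD, n = 3 each) gave a ratio of 1.95. Iapp overlaps Slco1a5, a transporter gene on the opposite strand that was at 0.0770 RPKM or less in each library. For each of Cck, Gip, Pyy and Iapp, an exact two-sided permutation test of the 6 RPKM values gave p = 0.1, the smallest that 3 against 3 allows.

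The other intestinal hormone genes did not share this direction. Gcg (chromosome 2, 62474530 to 62483650, minus strand), the proglucagon gene, was at 1.81, 0.787 and 1.09 RPKM in the 3 Sox2 KO libraries and at 1.09, 2.47 and 1.85 RPKM in the 3 Sox2 WT libraries, and the groups overlapped. Its log2 fold change was -0.41 (SE 0.289, 95% interval -1.09 to 0.27, limma adjusted p = 0.9995), and with sex as a covariate it was 0.08. Pyy and Gcg, which L cells make together, thus had log2 fold changes of opposite sign, a difference that was not tested. Sct (chromosome 7, 141278330 to 141279133, minus strand), encoding secretin, the stimulus of bicarbonate secretion, was near the detection limit, with 1, 7 and 9 reads in the 3 Sox2 KO libraries and 9, 13 and 8 reads in the 3 Sox2 WT libraries. That gave 0.0482, 0.346 and 0.381 RPKM in the 3 Sox2 KO libraries, against 0.535, 0.665 and 0.450 RPKM in the 3 Sox2 WT libraries. Each Sox2 KO value was below each Sox2 WT value, which was so for 4.53% of genes with reads but under the 0.5 RPKM limit. The exact 95% Poisson interval of the single read in Sox2 KO replicate 1 reached 0.268 RPKM, while those of Sox2 KO replicates 2 and 3 took in all 3 Sox2 WT values. Sct was tested only without the limit on low values, where its log2 fold change was -0.50 (limma adjusted p = 0.9998).

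**Figure D2:**
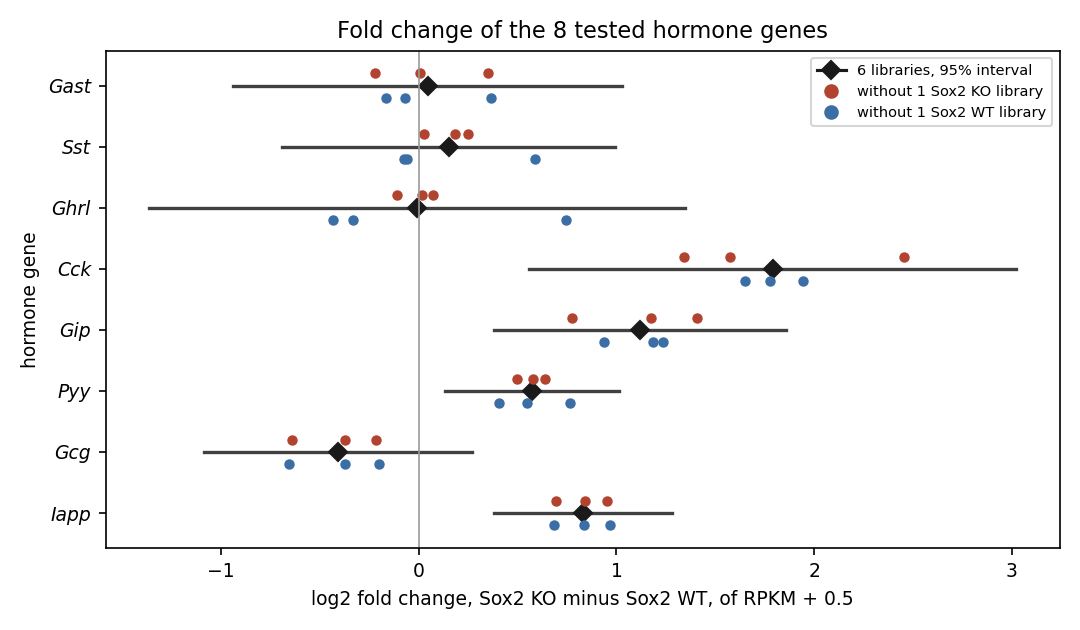
Log2 fold change of RPKM + 0.5, Sox2 KO minus Sox2 WT, for the 8 tested hormone genes, with the 95% interval from all 6 libraries (diamond and line) and the values after leaving out 1 Sox2 KO library (red) or 1 Sox2 WT library (blue). Cck, Gip, Pyy and Iapp stay above 0 under each omission, while Gast, Sst and Ghrl lie on both sides of 0.

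Among the gastric hormones, Gast (chromosome 11, 100334407 to 100336996, plus strand) was the most abundant of the 10 genes in every library. Gastrin transcripts were at 2766, 4439 and 6095 RPKM in the 3 Sox2 KO libraries, against 6383, 3056 and 3496 RPKM in the 3 Sox2 WT libraries. The lowest and the second highest values were both Sox2 KO libraries, and the groups overlapped over most of their range. The 95% interval of the log2 fold change, -0.94 to 1.03 around 0.04, is wide, so these libraries do not set a narrow limit on a change of Gast. With sex as a covariate, against Sox2 WT replicate 1 alone, which had the highest Gast level, the log2 fold change was -0.60 (limma adjusted p = 0.9992).

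Sst (chromosome 16, 23889573 to 23890958, minus strand), encoding somatostatin, was at 389, 426 and 530 RPKM in the 3 Sox2 KO libraries, against 293, 731 and 299 RPKM in the 3 Sox2 WT libraries. Ghrl (chromosome 6, 113716119 to 113719880, minus strand), encoding ghrelin, was at 505, 602 and 468 RPKM in the 3 Sox2 KO libraries, against 334, 1490 and 290 RPKM in the 3 Sox2 WT libraries. For both genes Sox2 WT replicate 2 was the highest of the 6 libraries and the other two Sox2 WT libraries were the lowest, so that the Sox2 KO values lay between them. The log2 fold change was 0.15 for Sst (95% interval -0.69 to 0.99) and -0.01 for Ghrl (95% interval -1.36 to 1.35), both with a limma adjusted p of 0.9995. Without Sox2 WT replicate 2, that of Sst was 0.59 (limma adjusted p = 0.711) and that of Ghrl 0.74 (limma adjusted p = 0.583). Ghrl overlaps 2 genes of the opposite strand: Gm26982 was at 1.66 to 2.74 RPKM in the 6 libraries, and Gm44033 was not analysed here.

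Sox2 WT replicate 2 also had the highest level of several acid-gland genes. The level of Atp4b, which encodes part of the acid pump of parietal cells, was 745, 815 and 423 RPKM in the 3 Sox2 KO libraries, against 430, 1656 and 209 RPKM in the 3 Sox2 WT libraries. Of the 10 parietal and chief cell markers listed, 9 were tested and 0 passed, and the summed level ran from 2798 to 6947 RPKM in Sox2 KO and from 866 to 6852 RPKM in Sox2 WT libraries. The libraries thus differed in their content of acid-gland transcripts within a group, and the part of this in the Ghrl and Sst values was not tested. In such bulk samples fewer hormone cells and less hormone RNA per cell cannot be told apart.

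Set against each other within a library, intestinal hormone transcripts formed a larger part in Sox2 KO. The 6 intestinal genes made up 0.739%, 0.753% and 0.704% of the summed gastric and intestinal RPKM in the 3 Sox2 KO libraries, against 0.249%, 0.360% and 0.607% in the 3 Sox2 WT libraries. The groups did not overlap, although gastric transcripts made up nearly all of the sum and enter the share as well. The intestinal sum was 27.3, 41.5 and 50.3 RPKM in the 3 Sox2 KO libraries, against 17.5, 19.1 and 24.96 RPKM in the 3 Sox2 WT libraries. Most of it was Cck, Gip and Pyy, so the share largely restates the levels of these genes. Gcg and Sct had lower means in Sox2 KO (1.23 and 0.258 RPKM) than in Sox2 WT (1.80 and 0.550 RPKM), and Nts had 0 reads. The sum over Gast, Sst and Ghrl overlapped, at 3660 to 7093 RPKM in Sox2 KO and 4085 to 7010 RPKM in Sox2 WT. Per 1000 RPKM of Gast there were 0.783, 2.71 and 1.40 RPKM of Cck in the 3 Sox2 KO libraries, against 0.219, 0.359 and 0.542 RPKM in the 3 Sox2 WT libraries. These ratios are descriptions with no test, since the genes were chosen with earlier results known. The median log2 fold change was 0.85 over the 4 tested intestinal genes and 0.04 over the 3 gastric ones, beside 0.02 over all tested genes. The intestinal values ran from -0.41 for Gcg to 1.79 for Cck, and Sct and Nts, under the limit for testing, were not among them.

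**Figure D3:**
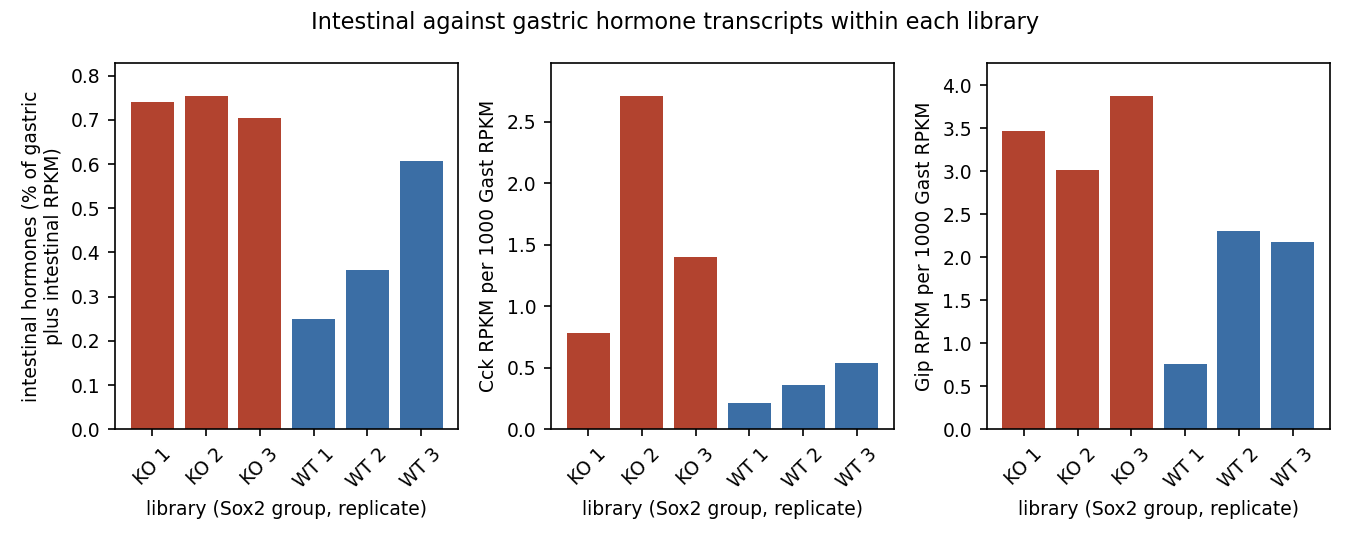
Bars give, for each Sox2 KO library (red) and Sox2 WT library (blue), the intestinal hormones as a percentage of gastric plus intestinal RPKM (left) and the RPKM of Cck (middle) and of Gip (right) per 1000 RPKM of Gast. In each panel the 3 Sox2 KO bars are taller than the 3 Sox2 WT bars, and the left panel stays under 1%.

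Gastrin and cholecystokinin end in the same active peptide, and Gip, Sct and Gcg belong to one peptide family. The transcripts still shared little sequence: over the 45 pairs of the 10 genes the longest identical run was 13 bases, and for Gast and Cck it was 12 bases. No member was a near-identical copy of another.

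Transcripts of neighbouring tissue were examined because the duodenum and pancreas make several of these hormones. Of 15 duodenal enterocyte and goblet cell markers, 9 were tested and 0 passed. Their summed level was 424 to 598 RPKM in Sox2 KO and 473 to 693 RPKM in Sox2 WT libraries. Several were well expressed in both groups and overlapped between them, such as Rbp2, a retinol-binding protein gene, at 180 to 257 RPKM in Sox2 KO and 217 to 255 RPKM in Sox2 WT, and Vil1, the villin gene, at 78.0 to 82.9 RPKM in Sox2 KO and 52.9 to 92.2 RPKM in Sox2 WT. Those with an unadjusted limma p under 0.05 were Fabp1, a fatty acid-binding protein gene (log2 fold change 1.18, adjusted p = 0.9995), and Alpi, intestinal alkaline phosphatase (log2 fold change -1.10, adjusted p = 0.9995), of opposite sign and with overlapping groups. The enterocyte enzyme genes Sis and Mep1a were at 0 in all 6 libraries and Lct was at most 0.0168 RPKM. Cdx2, the intestinal homeobox factor, was under the limit for testing and overlapped between the groups, at 0.134, 0.792 and 0.653 RPKM in the 3 Sox2 KO libraries and 0.238, 0.0158 and 0.278 RPKM in the 3 Sox2 WT libraries. Within Sox2 KO, the library with the least Cck was also the one with the least Cdx2, and the part of Cdx2-expressing cells in the Cck values was not tested. Insulin transcripts of pancreatic islets were near 0, with Ins1 at most 0.246 RPKM and Ins2 at most 0.0954 RPKM, and islet marker sums of 1.21 to 2.29 RPKM in Sox2 KO and 0.874 to 1.18 RPKM in Sox2 WT came mostly from Ppy. Of 12 pancreatic acinar markers 6 were tested and 0 passed, Cpa1 was at 0 in all libraries, and the summed level was 3649 to 8375 RPKM in Sox2 KO and 1360 to 10045 RPKM in Sox2 WT. Most of that sum was Clps, the colipase gene, which overlapped between the groups and was highest in Sox2 WT replicate 2 at 9509 RPKM. Atp4b, of the acid glands, was also highest in that library. Among the acinar markers under the limit for testing, Cela2a was at most 0.242 RPKM, Prss2 0.0425 RPKM and Cela3b 0.0205 RPKM. Pnlip had at most 5 reads in a library, and Amy2b was at most 1.14 RPKM. The tested acinar markers other than Clps and Cela1 were at most 13.3 RPKM. Cela1, an elastase gene, was at 289 to 456 RPKM in Sox2 KO and 507 to 540 RPKM in Sox2 WT. Its groups did not overlap, as for 2.99% of all tested genes in that direction, and its log2 fold change was -0.51 (limma adjusted p = 0.9995). The part of these transcripts in the hormone values was not tested.

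Ppy, encoding pancreatic polypeptide and next to Pyy in its family, had no overlap between the groups either. It was at 2.23, 1.39 and 1.01 RPKM in the 3 Sox2 KO libraries, against 0.752, 0.863 and 0.869 RPKM in the 3 Sox2 WT libraries (log2 fold change 0.58, limma adjusted p = 0.9995). It was the only one of the 5 tested genes, of 20 further gut peptide genes listed, whose groups did not overlap, and 0 passed; all Sox2 KO values were higher for 4.09% of all tested genes and lower for 2.99%. Insl5 and Ucn3 were at 0 in all libraries.

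Genes that process and store hormones pointed the other way. All 12 tested genes of 13 prohormone convertases, granins and related enzymes had a negative log2 fold change, with a median of -0.30 beside 0.02 over all genes, and 0 passed. Their count of negative values was 10 without Sox2 WT replicate 1, 11 without Sox2 WT replicate 2 and 11 with sex as a covariate. The 3 Sox2 KO values lay below the Sox2 WT values for Chgb, Scg5 and Pam, beside 2.99% of all tested genes. Chgb, a granin of secretory granules, was at 56.8, 68.4 and 67.5 RPKM in the 3 Sox2 KO libraries, against 154, 100.2 and 130 RPKM in the 3 Sox2 WT libraries (log2 fold change -0.97, SE 0.176, limma adjusted p = 0.298). Pam, which amidates gastrin and cholecystokinin, had a log2 fold change of -0.25 (SE 0.106, limma adjusted p = 0.9995), and Scg5, a chaperone of a prohormone convertase, of -0.40 (SE 0.161, limma adjusted p = 0.9995).

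Endocrine transcription factors were also mostly lower, with 14 of the 17 tested negative, a median log2 fold change of -0.22 and 0 past the test. Nkx6-1 was at 0.180, 0.215 and 0.149 RPKM in the 3 Sox2 KO libraries, against 1.11, 0.731 and 0.827 RPKM in the 3 Sox2 WT libraries (log2 fold change -1.02, SE 0.158, limma adjusted p = 0.190). Neurog3, which commits progenitors to the endocrine lineage, had a log2 fold change of -0.43 (SE 0.155), Insm1 of -0.44 (SE 0.162) and Pax6 of -0.25 (SE 0.144), all with a limma adjusted p of 0.9995 and groups that did not overlap. All Sox2 KO values were lower for 4 of the 17 tested factors, beside 2.99% of all tested genes. Lmx1a, under the limit for testing, was at most 0.0261 RPKM in Sox2 KO and at least 0.116 RPKM in Sox2 WT. Of genes with reads but under that limit, 4.53% were separated in that direction. Pdx1, which gastrin cells need, overlapped between the groups at 14.5 to 16.4 RPKM in Sox2 KO and 9.85 to 15.9 RPKM in Sox2 WT, and was named after its values were seen.

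Serotonin-producing cells are endocrine neighbours of the hormone cells. Tph1, the first enzyme of serotonin synthesis, was at 2.22, 1.39 and 1.56 RPKM in the 3 Sox2 KO libraries, against 11.0, 6.88 and 11.4 RPKM in the 3 Sox2 WT libraries, and had a limma adjusted p of 0.0501 (log2 fold change -2.19). It passed without Sox2 KO replicate 1 or Sox2 WT replicate 2, and also with a pseudocount of 0.1, a filter of 1 RPKM, robust variances, voom on reads or a threshold of 0.1. Tph1 did not pass without Sox2 KO replicate 2 or 3 or Sox2 WT replicate 1 or 3. Nor did it pass with a pseudocount of 1, no limit on low values, either rescaling, no variance trend or a replicate block. It also did not pass with sex as a covariate, which sets the Sox2 KO libraries against Sox2 WT replicate 1 alone. The fit of male libraries alone leaves 1 Sox2 WT library and is not counted here. Maob, which breaks down amines, had a log2 fold change of -0.55 (SE 0.148, limma adjusted p = 0.867), and Ddc of -0.11 (SE 0.0941, limma adjusted p = 0.9995). The 3 Sox2 KO values lay below the Sox2 WT values for both, as for Tph1, beside 2.99% of all tested genes. Maob was at 9.91, 9.89 and 10.6 RPKM in the 3 Sox2 KO libraries, all male. In Sox2 WT it was at 12.0 RPKM in replicate 1, male, and at 17.3 and 16.4 RPKM in replicates 2 and 3, female. The part of sex in the Maob values was not tested.

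**Figure D4:**
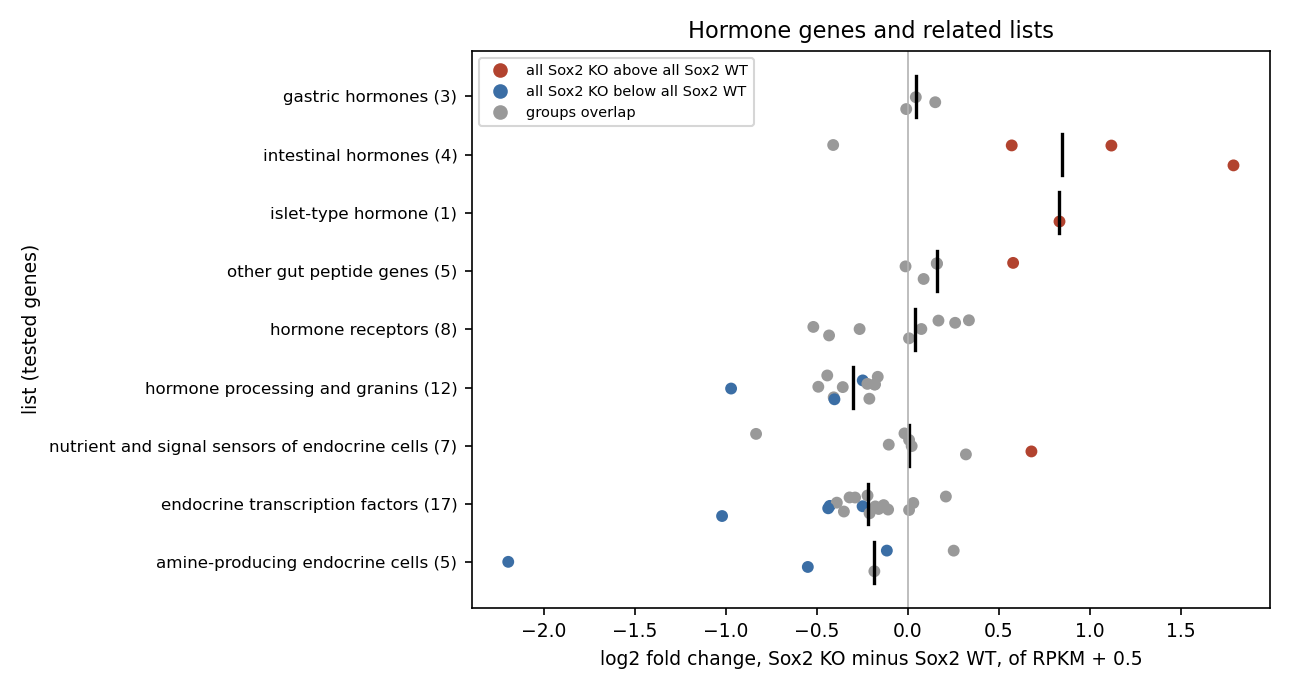
Log2 fold change of RPKM + 0.5, Sox2 KO minus Sox2 WT, of each tested gene in the hormone classes and the related lists, with a black bar at each list's median, and red and blue for genes whose 3 Sox2 KO values lie all above or all below the 3 Sox2 WT values. Red points stand among the intestinal and islet-type hormones, the other gut peptide genes and the sensors, and the 12 processing genes all lie below 0.

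Receptors for these hormones gave no call. Of 23 listed, 8 were tested, 5 with a positive and 3 with a negative log2 fold change, and the split was 4 and 4 with quantile normalization or median-of-ratios scaling, and 1 and 7 without Sox2 WT replicate 3. Sctr, the secretin receptor, was at 14.8 to 20.5 RPKM in Sox2 KO and 14.3 to 18.9 RPKM in Sox2 WT, far above the transcript of its hormone. Cckar, a cholecystokinin receptor, was highest in Sox2 WT replicate 2 at 21.5 RPKM, the library with the most Ghrl. These 2 receptors were picked after their values were seen. Gipr and Sstr3 were under the limit for testing, with Sox2 KO values below the Sox2 WT values. This was so for 4.53% of genes with reads but under that limit. Gipr was at 0.135 to 0.264 RPKM in Sox2 KO and 0.265 to 0.562 RPKM in Sox2 WT. Its nearest values, 0.2643 RPKM in Sox2 KO replicate 1 and 0.2645 RPKM in Sox2 WT replicate 3, came from 14 and 12 reads. Sstr3 was at 0.299 to 0.353 RPKM in Sox2 KO and 0.369 to 0.473 RPKM in Sox2 WT.

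Of 17 nutrient and signal sensors of endocrine cells, 7 were tested and 0 passed. Abcc8, a subunit of the ATP-sensitive potassium channel that couples glucose to hormone release, was at 5.19, 4.69 and 3.79 RPKM in the 3 Sox2 KO libraries, against 2.94, 1.84 and 3.32 RPKM in the 3 Sox2 WT libraries (log2 fold change 0.68, SE 0.206, limma adjusted p = 0.9995). Kcnj11, its partner subunit, was at 1.06 to 1.49 RPKM in Sox2 KO and 1.20 to 1.66 RPKM in Sox2 WT, and was named after its values were seen. Tuft cells, another rare chemosensory type, had 5 of 6 listed markers with all Sox2 KO values above the Sox2 WT values, beside 4.09% of all tested genes. Their median log2 fold change was 1.00 with 0 past the test, and whether they have a part in the hormone values was not tested.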

How the data were processed

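RNA of pylorus epithelium and mesenchyme was sequenced on an Illumina instrument. The submitters' processing notes name CASAVA 1.7, STAR and the build mm10, without roles. The authors deposited RPKM per Ensembl gene, 1 column a library. The sources used here do not give the counter, annotation, strand setting or filters. The RPKM come out as whole reads, within 1e-04 reads, for 100% of the 23538 genes above 0, given 1 length a gene and 1 denominator a library. The length was searched for and the shortest that fitted was taken, though a multiple of it would fit as well. Reads of a gene, their Poisson intervals and sums of reads are therefore estimates.

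The test was limma 3.58.1 (R 4.3.3) on log2(RPKM + 0.5), with a variance trend, over 14045 genes with a mean of at least 0.5 RPKM (highest row per symbol), Benjamini-Hochberg adjustment and a threshold of 0.05. The method was tested on simulated data. Members, lists and tests were chosen with earlier results of these data known. From each list, genes that passed or did not overlap were named, at most 5; other genes of those lists are marked where named. Markers of other cell types were named after their values were seen. Alternatives were 2 pseudocounts, 2 filters, 2 scalings, 2 variance models, a replicate block, sex as a covariate or male libraries alone, voom on the reads, each library left out, and a threshold of 0.1. Coordinates and overlaps are from GENCODE M21 (GRCm38).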

Additional observations from a re-analysis of the deposited data

How the results depend on the processing

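None of the hormone genes was called under 18 of the 19 alternatives, and 1, Cck, was called without Sox2 KO replicate 1; leaving out 1 library gave 0 to 1 calls. The log2 fold changes of Cck (1.34 to 2.45), Gip (0.78 to 1.48), Pyy (0.40 to 0.76) and Iapp (0.68 to 0.97) were positive under each alternative that changed the fit. Those of the other 4 changed sign, and the cause was not tested. Gast was at -0.27 under quantile normalization and -0.60 with sex as a covariate or male libraries alone, and ran from -0.22 to 0.37 when 1 library was left out. Ghrl was at 0.64 with sex as a covariate or male libraries alone and 0.0059 with voom, and ran from -0.44 to 0.74. Sst was at 0.60 with sex as a covariate or male libraries alone, and ran from -0.0733 to 0.59 when 1 library was left out. Gcg was at 0.0803 with sex as a covariate or male libraries alone, and Cck ran from 1.34 to 2.45 when 1 library was left out.

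Over the table the number of genes called, 4, became 1 with the replicate block or with sex as a covariate, 0 in male libraries alone with limma, 8 with voom on the reads and 8 at an adjusted p under 0.1, and ran from 1 to 8 when 1 library was left out. In male libraries alone Sox2 WT is 1 library, assumed to vary like the others. With the replicate block no hormone gene was called; Gip then had a limma unadjusted p of 0.00114 (adjusted p = 0.469). The numbers are not shown to pair the samples: deviations of same-numbered libraries correlated at 0.009, 0.097 and -0.074, and Sox2 KO replicate 1 correlated best with Sox2 WT replicate 3. Rescaling moved the median of all genes by under 0.1 on the log2 scale. Depth limits Sct, with 1 to 13 reads a library, and Nts, with 0.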

Other observations

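For each tested hormone gene, the genes most like it were sought among 11062 genes, those with a mean of at least 1 RPKM after predicted and unnamed genes and pseudogenes were left out by symbol, by the root-mean-square difference between centred log2(RPKM + 0.5) profiles over the 6 libraries. This is a description over few libraries. Gast lay nearest to the DNA replication gene Mcm6 (0.131), the smooth muscle actin gene Actg2 (0.132) and Mcm3 (0.172), against a spread of its own of 0.466. Sst lay nearest to Oxld1, the mitochondrial gene mt-Cytb and Chchd7 (0.109 to 0.142), and Ghrl to Ppp1r3a, Fkbp6 and Ybx2 (0.176 to 0.193). Nearest to Cck were the mast cell protease gene Mcpt1 (0.510), the immunoglobulin segment Ighv8-11 (0.529) and Prap1 (0.539), against a spread of its own of 1.14. Gip lay nearest to Tstd1 (0.264), the tuft and taste cell gene Gng13 (0.309) and Frat2 (0.316). Pyy lay nearest to Clic3 (0.0725), Col11a2 and Gsta1, Gcg to N4bp2l1, the clock gene Per3 and Snora28 (0.222 each, against a spread of its own of 0.415), and Iapp to mt-Te (0.150), Ifitm1 and Acer1.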
